A study of Mus musculus with 12 samples.

Results

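The 10 genes described here encode transcription factors and chromatin regulators that take a blood progenitor into the T lineage: Gata3, Bcl11b, Runx1, Tox, Satb1, Ets1, Myb, Gfi1, Sox4 and Zeb1. They were taken by symbol, and every probe set that the array annotation gave to 1 of these genes alone was kept, which made 39 of 34945 single-gene probe sets and 10 of 18193 genes. Of the 39 probe sets 37 passed the filter on low values, and all 10 genes did. The arrays came from 4 groups of 3 mouse samples, and that number limits the precision of every value. WT T-ALL and KO T-ALL are GFP+ leukaemia cells sorted from the bone marrow of transplant recipients, once GFP+ cells made up most of their blood leukocytes, with Notch1-driven T-cell acute lymphoblastic leukaemia, of MBD2+/+ (wild type) and MBD2-/- (deletion) genotype. WT DP and KO DP are CD4+CD8+ (double positive) thymocytes sorted from steady-state MBD2+/+ and MBD2-/- mice. The design text gives no dose, sex or age, and does not say whether the 3 leukaemias of a genotype arose separately. It gives the deletion without a cell type restriction.

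In the thymus, Notch signals first raise Gata3 and the TCF1 gene, and Bcl11b then closes the progenitor programme and fixes the T fate. Runx1, Ets1, Myb and Gfi1 act with them as sequence-specific activators or repressors from the progenitor through the double positive stage. Tox and Satb1 are better known for later steps, the passage through positive selection and the folding of chromatin around thymocyte genes, and Sox4 and Zeb1 support the survival and expansion of early thymocytes. MBD2 is a protein that binds methylated CpG and brings the NuRD repressor complex to DNA.

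Between the leukaemia genotypes 6 of the 10 factors were called, where 9.19% of all genes tested were called higher and 6.98% lower. Satb1 was lower in KO T-ALL, while Gata3, Tox, Runx1, Sox4 and Myb were higher, and Bcl11b, Ets1, Zeb1 and Gfi1 did not pass. The calls of Runx1, Sox4 and Myb were lost in some alternative fits. In thymocytes none of the 10 passed between the genotypes, where 0.0195% of all genes were called higher and 0.013% lower. Against the thymocytes of the same genotype, WT T-ALL carried less Bcl11b, Satb1, Myb, Sox4, Runx1 and Zeb1. KO T-ALL carried less Satb1, Bcl11b and Zeb1 and more Gata3 and Tox. Of all genes tested, 19.7% were called higher and 14.2% lower in WT T-ALL, and 18.5% and 11% in KO T-ALL.

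RefSeq promoter windows of GRCm38.p6 were used for 7 of the 10 genes, 13 windows in all. Each held 300 bases, from 250 before to 50 after an annotated start. No window of Tox, Ets1 or Zeb1 was used. The selection left out a chromosome, so a gene on it can have an annotated window that was not used. For a gene on another chromosome this does not account for the absence. Shown are windows of the 5 genes that were called between the leukaemia genotypes and had a window in use. They are shown since the letters that MBD2 reads when methylated are CpG. Capitals mark each CG. For Satb1, with 5 annotated starts, the window richest in CG is given, and for Runx1 the windows of both annotated starts.
Gata3, chr2:9878551-9878850, minus strand: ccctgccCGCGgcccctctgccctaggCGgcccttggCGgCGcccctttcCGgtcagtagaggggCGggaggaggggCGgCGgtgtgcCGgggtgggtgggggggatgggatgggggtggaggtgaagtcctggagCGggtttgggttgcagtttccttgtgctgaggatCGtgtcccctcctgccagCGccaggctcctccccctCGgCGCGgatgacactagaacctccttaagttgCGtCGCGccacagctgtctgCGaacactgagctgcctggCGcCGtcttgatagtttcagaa
Myb, chr10:21160935-21161234, minus strand: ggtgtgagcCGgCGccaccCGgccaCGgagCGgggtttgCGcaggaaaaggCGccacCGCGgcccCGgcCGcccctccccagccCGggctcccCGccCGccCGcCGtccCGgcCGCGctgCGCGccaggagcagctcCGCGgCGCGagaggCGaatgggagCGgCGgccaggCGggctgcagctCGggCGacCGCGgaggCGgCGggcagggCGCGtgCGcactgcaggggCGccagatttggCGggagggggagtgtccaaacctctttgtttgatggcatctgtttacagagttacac
Sox4, chr13:28953650-28953949, minus strand: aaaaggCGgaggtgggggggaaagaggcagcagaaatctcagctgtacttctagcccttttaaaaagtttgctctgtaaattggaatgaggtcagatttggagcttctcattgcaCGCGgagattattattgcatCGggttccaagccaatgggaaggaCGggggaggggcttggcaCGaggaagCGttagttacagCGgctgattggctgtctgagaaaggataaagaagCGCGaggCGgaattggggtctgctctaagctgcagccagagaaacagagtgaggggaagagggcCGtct
Runx1 upstream start, chr16:92826025-92826324, minus strand: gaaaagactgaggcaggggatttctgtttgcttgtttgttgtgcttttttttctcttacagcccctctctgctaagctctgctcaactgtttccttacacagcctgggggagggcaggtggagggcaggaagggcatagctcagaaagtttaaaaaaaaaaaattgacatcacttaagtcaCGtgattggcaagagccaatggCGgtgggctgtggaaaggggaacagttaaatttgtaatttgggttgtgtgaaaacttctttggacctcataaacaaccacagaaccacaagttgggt
Runx1 downstream start, chr16:92697280-92697579, minus strand: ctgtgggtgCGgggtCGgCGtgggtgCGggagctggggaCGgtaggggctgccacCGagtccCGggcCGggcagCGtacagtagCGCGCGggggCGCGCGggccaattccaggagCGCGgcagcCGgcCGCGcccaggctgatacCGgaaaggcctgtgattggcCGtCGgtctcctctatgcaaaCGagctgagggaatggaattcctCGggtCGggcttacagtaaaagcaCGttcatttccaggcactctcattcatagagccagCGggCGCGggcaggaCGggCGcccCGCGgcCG
Satb1, chr17:51832598-51832897, minus strand: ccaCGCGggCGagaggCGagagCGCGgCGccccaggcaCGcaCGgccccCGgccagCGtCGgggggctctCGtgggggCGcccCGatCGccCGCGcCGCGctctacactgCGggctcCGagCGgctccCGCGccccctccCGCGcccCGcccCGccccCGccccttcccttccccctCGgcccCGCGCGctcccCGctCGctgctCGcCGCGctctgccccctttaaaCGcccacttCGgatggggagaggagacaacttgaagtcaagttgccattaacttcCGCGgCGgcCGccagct
These windows differ widely in CG. The Satb1 window held 45, a number that 1.93% of the 32851 windows in the table reached. The Myb window held 40 (reached by 3.91%), the downstream Runx1 window 35 (6.95%), the Gata3 window 22 (23.1%), the Sox4 window 12 (39.6%) and the upstream Runx1 window 2 (85.9%). The other 4 Satb1 windows held 8, 3, 13 and 7, the Bcl11b window 9 and the Gfi1 windows 16 and 10. The median window held 7. The 2 highest counts belonged to a factor that fell, Satb1, and one that rose, Myb, and a relation of CG to the direction of change was not tested. Methylation was not measured here, and the arrays do not tell which start was used.

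Words bound by the factors themselves were searched in the same 13 windows on both strands, where CG overlaps the ETS word alone. TGTGGT, a RUNX word that 16.8% of all windows hold, occurred 2 times in the upstream Runx1 window and in no other. CAGGTG, which ZEB proteins bind and 20.2% of windows hold, occurred once each in the upstream Runx1 window, 1 Gfi1 window and 2 Satb1 windows. CCGGAAG, an ETS word held by 8.86%, occurred once, in the other Gfi1 window, and AGATAA, which Gata3 and its relatives bind and 11.2% hold, in none of the 13. A match or its absence describes these letters alone.

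The genotypes were checked first on the targeted gene. Mbd2 gave a log2 difference of −3.58 (SE 0.17, adjusted p = 3.16e-05) between KO and WT T-ALL and −3.70 (SE 0.16, adjusted p = 0.000718) between KO and WT DP. All differences here are limma coefficients on the log2(intensity + 16) scale with 3 arrays per group, which understate the fold of dim probe sets, and adjusted p is Benjamini-Hochberg over all 15420 genes tested, with 0.05 as the threshold. Each gene is represented by its brightest single-gene probe set. In bulk RNA, fewer cells of a type and less RNA per cell cannot be told apart.

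The sorted cells were also checked against markers. Of 10 double positive markers 9 were measured, and all 9 lay above background in both thymocyte groups. Their summed intensity was 47355 to 58098 in WT DP and 44411 to 56692 in KO DP, 12982 to 14343 in WT T-ALL and 6123 to 8233 in KO T-ALL, where Rag1 and Rag2 were not above background, as Rag2 was not in WT T-ALL. Background here means 35.3, the highest intensity of a poly-A control probe set on the arrays without such control RNA. The 5 measured T cell markers were above background in all groups. They summed to 16654 to 20020 in WT T-ALL, 12844 to 16581 in KO T-ALL, 25783 to 32198 in WT DP and 24838 to 30302 in KO DP. Markers of other lineages moved with the leukaemia genotype: the summed intensity of 6 mast cell markers was 132 to 159 in WT T-ALL and 8060 to 9606 in KO T-ALL, with 3 members higher, while the defining Fcer1a, Mcpt4 and Tpsb2 were not above background in either. The 4 natural killer markers measured summed to 86.4 to 93.2 and 1545 to 2091, with Ncr1 not above background in either group. The 5 measured B cell markers summed to 142 to 152 and 639 to 974, with Cd79a, Ms4a1 and Pax5 not above background in either. Erythroid markers summed to 226 to 252 in WT T-ALL and 185 to 226 in KO T-ALL, megakaryocyte markers to 228 to 263 and 389 to 463, and stromal or epithelial markers to 154 to 178 and 349 to 513. Myeloid markers summed to 1081 to 1949 in WT T-ALL, 282 to 869 in KO T-ALL, 230 to 613 in WT DP and 256 to 534 in KO DP, and 2 of 8 were called lower in KO than in WT T-ALL. MHC class II and dendritic markers summed to 384 to 468 in WT T-ALL and 369 to 642 in KO T-ALL. The part of these cell type markers in the differences below was not tested.

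The arrays also fell into 2 technical sets. Replicates 1 and 2 of WT T-ALL and of WT DP and replicate 1 of KO T-ALL carried signal of poly-A control transcripts added before labelling (673 to 2765 for one dap probe set), and the other 7 did not (7.74 to 13.4). The Gapdh 3' to 5' ratio, which rises as RNA degrades, was 0.964 to 1.14 in the first set and 1.12 to 3.68 in the second. Differences within each set rest on 1 to 3 arrays a group and carry no test.

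**Figure D1:**
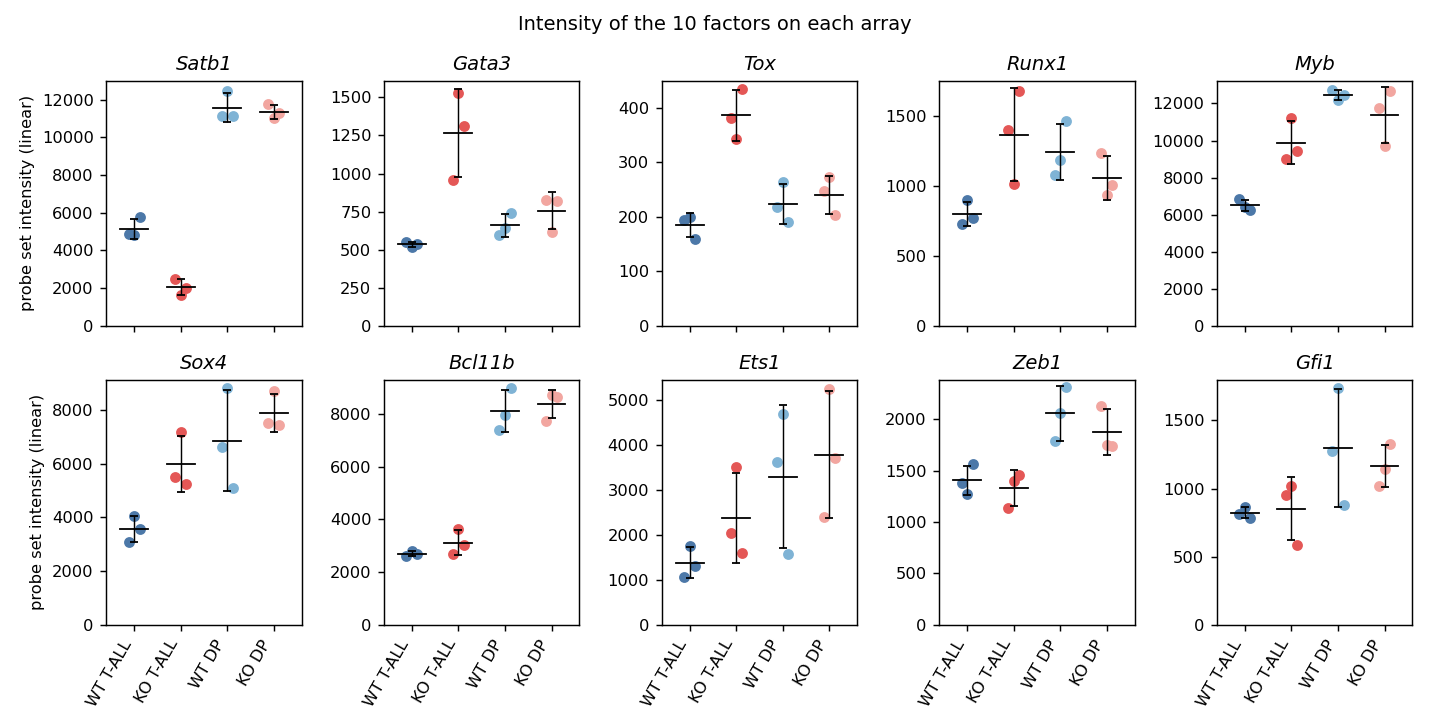
Intensity on a linear axis of the representative probe set of each of the 10 factors in the 4 groups. Points are single arrays, horizontal lines group means and bars 1 SD (n = 3). Satb1 falls in steps from the thymocyte groups through WT T-ALL to KO T-ALL, Gata3 and Tox are highest in KO T-ALL, and Bcl11b separates both leukaemia groups from both thymocyte groups.

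Between the leukaemia genotypes 5 of the 10 factors were called higher and 1 lower, where 9.19% of all genes tested were called higher and 6.98% lower. Blocking on the replicate number took the calls over all genes from 2493 to 3871, and with arrays centred on their 75th percentile 45.0% of calls were higher in place of 56.8%. Without WT T-ALL replicate 1, 2 or 3, the factors called higher numbered 3. The median difference of the 10 was log2 0.66, against −0.06 over all genes tested.

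Satb1, an AT-rich-DNA binding organizer of thymocyte chromatin, was the factor that fell. Its intensities were 4886, 4806 and 5764 in WT T-ALL and 2479, 1645 and 1987 in KO T-ALL, so the highest knockout array lay well below the lowest wild-type array. The difference was 2.54-fold (log2 −1.35, SE 0.17, adjusted p = 0.00219), and it was log2 −0.96 among arrays with poly-A signal and −1.66 among those without. All 5 Satb1 probe sets were called lower when each probe set was tested, at log2 −1.74 to −0.95. The probe set 1439449_at gave the most negative value, going from 1296, 1101 and 1261 to 407, 322 and 335.

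Gata3, the zinc finger factor needed from the earliest T progenitor onwards, has 1 probe set. It gave 550, 517 and 535 in WT T-ALL and 959, 1532 and 1310 in KO T-ALL. The wild-type arrays sat within a narrow band, the knockout arrays were all above it, and their spread was wider. The rise was 2.29-fold (log2 1.20, SE 0.17, adjusted p = 0.00426), at log2 0.83 in the poly-A set and 1.38 outside it.

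Tox, an HMG-box factor required for CD4 lineage development, gave 195, 200 and 159 in WT T-ALL and 381, 343 and 435 in KO T-ALL without overlap. This was a 2.01-fold rise (log2 1.00, SE 0.13, adjusted p = 0.00293), at log2 0.90 in the poly-A set and 1.20 outside it. A second Tox probe set, 1425484_at, was called higher too (80, 85 and 69 against 143, 205 and 136, log2 0.89, adjusted p = 0.0167 over all probe sets). The remaining one, 1425483_at, did not pass: its values of 181, 133 and 51 against 269, 244 and 114 overlapped, and in each genotype the array numbered 3 was the lowest.

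Myb, a factor of progenitor expansion and of double positive cell survival, rose 1.51-fold (log2 0.60, SE 0.12, adjusted p = 0.015). Its brightest probe set gave 6838, 6405 and 6265 in WT T-ALL and 8984, 11204 and 9442 in KO T-ALL, again without overlap. By its suffix (1421317_x_at) some probes of this set can match other transcripts. The other 2 Myb probe sets, 1450194_a_at and 1422734_a_at, differed by log2 0.80 and 0.84, of which the first was called. The difference was log2 0.44 in the poly-A set and 0.71 outside it, and without WT T-ALL replicate 2 the adjusted p of Myb was 0.0681.

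Runx1, the DNA-binding partner of CBFβ, gave 730, 897 and 770 in WT T-ALL and 1403, 1018 and 1683 in KO T-ALL. The groups did not overlap, but the knockout array numbered 2 lay close to the wild-type range. Its 1.67-fold rise (log2 0.74, SE 0.19, adjusted p = 0.0445) was near the threshold, and leaving out any of the arrays except KO T-ALL replicate 2 ended the call (WT T-ALL replicates 1, 2 and 3 at adjusted p of 0.14, 0.0931 and 0.1, KO T-ALL replicates 1 and 3 at 0.11 and 0.0838). A block for the poly-A set brought its adjusted p to 0.055, with differences of log2 0.78 and 0.75 inside and outside that set. The 6 Runx1 probe sets all had positive differences, log2 0.27 to 0.85, and none was called in the test over probe sets.

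Sox4, an HMG-box factor of lymphoid progenitors, gave 3065, 4037 and 3574 in WT T-ALL and 5524, 7184 and 5235 in KO T-ALL. The knockout arrays were all higher, by 1.67-fold (log2 0.74, SE 0.16, adjusted p = 0.0236), at log2 0.65 in the poly-A set and 0.78 outside it. Of its 8 probe sets 7 were tested and 1 was called. The next brightest sets, 1419155_a_at (1543, 1641 and 2090 against 1807, 2835 and 4461, log2 0.70) and 1419156_at (log2 0.72), did not pass and had more spread between arrays. Averaging all 8 Sox4 probe sets, the filtered one included, ended the call (log2 0.35, adjusted p = 0.122), as did leaving out WT T-ALL replicate 1 (adjusted p = 0.0793), WT T-ALL replicate 3 (0.0568) or KO T-ALL replicate 2 (0.0527).

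The 4 factors that did not pass differed in how tightly they were measured. Bcl11b, the zinc finger factor that seals T commitment, gave 2612, 2782 and 2700 against 2668, 3628 and 3033, an estimate of log2 0.19 with a 95% interval of −0.12 to 0.50 (−0.01 in the poly-A set and 0.30 outside it). Zeb1, a zinc finger and homeobox repressor, gave 1380, 1277 and 1563 against 1134, 1402 and 1456 (log2 −0.08, interval −0.41 to 0.24). Gfi1, a zinc finger repressor, gave 810, 865 and 786 against 951, 1020 and 586 (log2 0.02, interval −0.48 to 0.51). For these 3 factors the knockout range covered or overlapped the wild-type range.

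Ets1, the winged helix-turn-helix factor of T and NK cells, was the least settled. It gave 1065, 1756 and 1311 in WT T-ALL and 2038, 3500 and 1583 in KO T-ALL, where the knockout array numbered 3 fell inside the wild-type range. Array number moved with the level in both genotypes, number 2 being the highest in each. The difference of log2 0.73 (SE 0.31, interval −0.02 to 1.47, adjusted p = 0.183) passed with the replicate number as a block (adjusted p = 0.0223), and was log2 0.57 in the poly-A set and 0.84 outside it. The 4 Ets1 probe sets had differences of log2 0.43 to 0.83, none of them called.

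**Figure D2:**
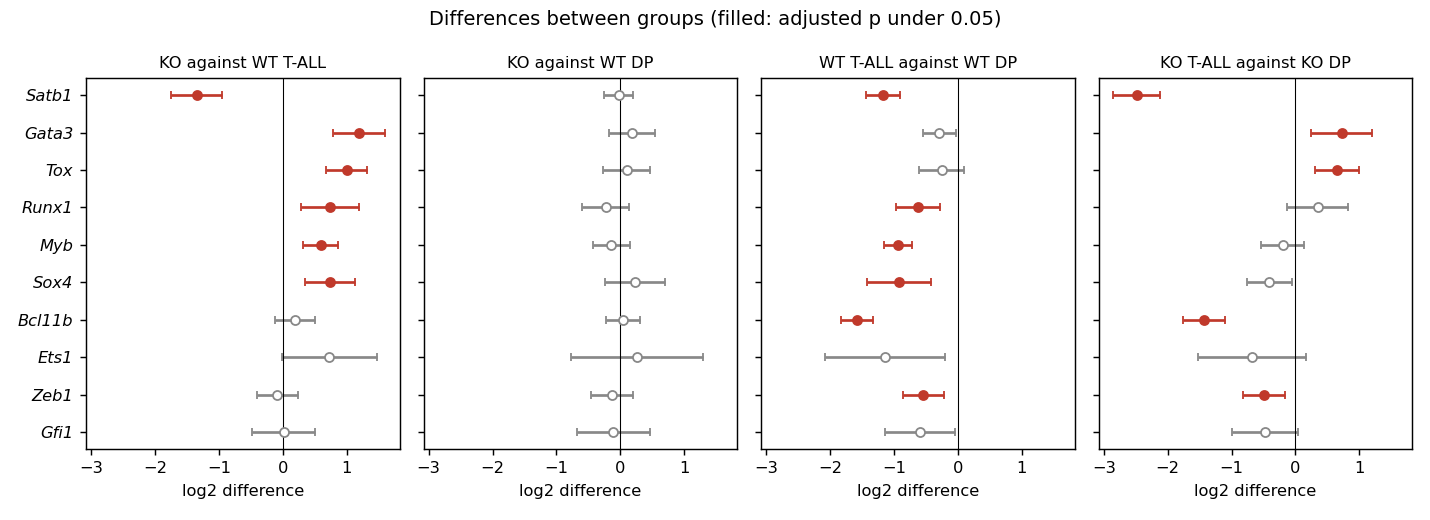
Log2 differences of the 10 factors in 4 comparisons of 2 groups, with 95% intervals from limma (3 arrays per group). Filled points have an adjusted p under 0.05. In thymocytes the points of KO against WT all lie near 0, whereas 6 are filled between the leukaemia genotypes.

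In double positive thymocytes limma called none of the 10 factors between the genotypes, and none had an unadjusted p under 0.05 (the lowest was 0.188). Over all genes tested 0.0195% were called higher and 0.013% lower, so few calls of any kind were made. For Satb1 the 3 WT DP arrays gave 11128, 12451 and 11149 and the 3 KO DP arrays 11750, 11008 and 11288. Those ranges overlap, and the interval of the difference was narrow, log2 −0.26 to 0.20.

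Gata3 gave 596, 642 and 739 in WT DP and 828, 615 and 822 in KO DP (log2 0.18, interval −0.17 to 0.54). Bcl11b gave 7404, 7978 and 8970 against 7746, 8736 and 8637 (log2 0.05, interval −0.22 to 0.31). Tox gave 218, 263 and 189 against 246, 272 and 203 (log2 0.10, interval −0.27 to 0.47). For each of these 3 the groups overlapped.

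Myb gave 12728, 12193 and 12481 against 11744, 9704 and 12656 (interval −0.43 to 0.15). Runx1 gave 1076, 1189 and 1463 against 1233, 934 and 1004 (interval −0.60 to 0.14), and Zeb1 1788, 2066 and 2321 against 2131, 1756 and 1746 (interval −0.45 to 0.19). Their estimates were all below 0 without passing.

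Sox4 and the 2 least precise factors varied most within WT DP. Sox4 gave 6639, 8836 and 5089 in WT DP and 7528, 8722 and 7450 in KO DP (interval −0.23 to 0.71). Gfi1 gave 1274, 1740 and 876 against 1018, 1147 and 1325 (interval −0.68 to 0.46). Ets1 gave 3626, 4687 and 1570 against 2405, 5232 and 3702 (interval −0.76 to 1.30). In all 3 the lowest WT DP array was number 3, the one of that group without poly-A signal and with the highest Gapdh ratio (3.68). Among arrays without poly-A signal, 1 WT DP and 3 KO DP, Ets1 differed by log2 1.19, Sox4 by 0.63 and Gfi1 by 0.39, against 0.27, 0.24 and −0.11 over all 6 arrays.

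Whether KO minus WT differed between leukaemia and thymocytes was tested as an interaction in 1 fit of all 12 arrays, where 12.6% of genes were called. Of those calls 62.4% were higher, and 47.8% with arrays centred on their 75th percentile. It passed for 5 factors. For Satb1 the interaction was log2 −1.32 (SE 0.20, adjusted p = 0.000857), at log2 −1.35 in leukaemia and −0.03 in thymocytes. For Gata3 it was higher by log2 1.01 (SE 0.24, adjusted p = 0.0163), for Tox by 0.90 (SE 0.21, adjusted p = 0.0151), for Myb by 0.74 (SE 0.16, adjusted p = 0.0118) and for Runx1 by 0.97 (SE 0.26, adjusted p = 0.0327). In Myb and Runx1 the thymocyte estimates were log2 −0.14 and −0.23. Sox4, called in leukaemia, did not pass this test (log2 0.50, interval −0.10 to 1.11, adjusted p = 0.313). The call of Runx1 was lost without any one of WT T-ALL replicates 1 or 3, KO T-ALL replicates 1 or 3, WT DP replicates 2 or 3 or KO DP replicates 2 or 3 (adjusted p 0.056 to 0.0848). It was also lost with quantile normalization (0.0621) and with arrays centred on their 75th percentile (0.0734).

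The leukaemias were then set against thymocytes of the same genotype, a comparison of cells that also differ in organ, sort and growth. In WT T-ALL against WT DP 6 of the 10 factors were called lower, where 14.2% of genes tested were lower, and 0 higher, where 19.7% were. The median of the 10 was log2 −0.77, against 0.06 over all genes. At an unadjusted p under 0.05 the factors numbered 9, all with negative differences, where 6450 of the 15420 genes reached it in either direction. These comparisons share their groups with those above and are not separate evidence.

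Bcl11b was 2.99-fold lower (log2 −1.58, SE 0.11, adjusted p = 7.57e-05). All 4 of its probe sets were called lower, at log2 −1.97 to −1.56. Satb1 was 2.25-fold lower (log2 −1.17, SE 0.11, adjusted p = 0.000323) and Myb 1.92-fold lower (log2 −0.94, SE 0.09, adjusted p = 0.000323), with all 5 and all 3 of their probe sets called. The Satb1 probe sets ranged from log2 −2.60 to −1.17. For these 3 factors the array values given above leave a wide gap between WT T-ALL and WT DP.

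Sox4 was 1.89-fold lower (log2 −0.92, adjusted p = 0.0143), Runx1 1.54-fold (log2 −0.62, adjusted p = 0.0151) and Zeb1 1.46-fold (log2 −0.54, adjusted p = 0.0189). When each probe set was tested, 3 of 7 Sox4, 1 of 6 Runx1 and 1 of 3 Zeb1 probe sets were called lower. The Runx1 sets ranged from log2 −0.67 to 0.04, with 5 of the 6 below 0. Within and outside the poly-A set Sox4 differed by log2 −1.12 and −0.51, Runx1 by −0.48 and −0.91 and Zeb1 by −0.53 and −0.57. These 3 smaller differences were not called without WT T-ALL replicate 1 (adjusted p 0.0564, 0.055 and 0.0587), which left 3 factors called lower. Zeb1 also lost its call without WT T-ALL replicate 2 (0.0763) or WT DP replicate 2 (0.0547), with arrays centred on their 75th percentile (0.0542), and when all 4 of its probe sets were averaged, the filtered one included (log2 −0.33, adjusted p = 0.0905).

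Ets1 (log2 −1.14, interval −2.08 to −0.20, adjusted p = 0.0673) and Gfi1 (log2 −0.60, interval −1.14 to −0.05, adjusted p = 0.0934) did not pass. Both passed with the replicate number as a block (adjusted p = 0.0132 and 0.0231) and without WT DP replicate 3 (log2 −1.60 and −0.85, adjusted p = 0.00257 and 0.00695). Of 19 alternatives Ets1 passed in 11 (adjusted p 0.00257 to 0.0449) and Gfi1 in 5 (0.00695 to 0.0245). Within the poly-A set the differences were log2 −1.58 and −0.82, and between the single arrays without signal −0.26 and −0.15. The 4 Ets1 probe sets lay at log2 −1.40 to −1.14, and 2 of them were called lower in the test over probe sets. Gata3 (log2 −0.29, interval −0.55 to −0.03, adjusted p = 0.0881) and Tox (log2 −0.25, interval −0.60 to 0.10, adjusted p = 0.257) differed least.

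**Figure D3:**
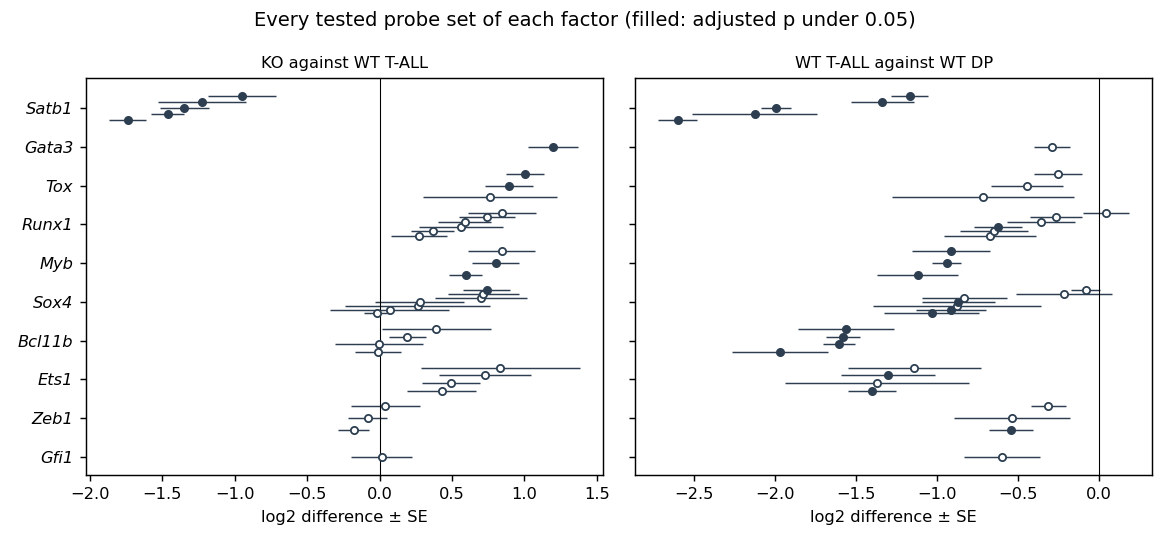
Log2 differences ± SE (3 arrays per group) of the 37 tested probe sets of the 10 factors, between the leukaemia genotypes and between WT T-ALL and WT DP. Filled points have an adjusted p under 0.05 over all 35465 probe sets tested. All Satb1 probe sets are filled on the negative side in both panels, the Bcl11b probe sets are filled against thymocytes and not between the leukaemia genotypes, and the Sox4 sets reach from near 0 to log2 0.74 in the first panel.

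In KO T-ALL against KO DP, 2 of the 10 factors were called higher, near the 18.5% of all genes that were. Called lower were 3, where 11% of genes were. Satb1 was 5.61-fold lower (log2 −2.49, SE 0.16, adjusted p = 4.29e-05), and its 5 probe sets lay at log2 −4.31 to −2.49. Bcl11b was 2.70-fold lower (log2 −1.43, SE 0.14, adjusted p = 0.0003), with all 4 probe sets called. For Bcl11b the leukaemia minus thymocyte difference did not change detectably with genotype (log2 0.15, interval −0.23 to 0.52).

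Tox (log2 0.65, SE 0.14, adjusted p = 0.0128) and Gata3 (log2 0.72, SE 0.20, adjusted p = 0.0323) were above the thymocyte level in KO T-ALL. Zeb1 was 1.41-fold lower (log2 −0.49, SE 0.14, adjusted p = 0.0357). The calls of Gata3 and Zeb1 were near the threshold and were lost without any 1 of several arrays. Gata3 lost its own, which left 1 factor higher, without KO T-ALL replicates 2 or 3 (adjusted p = 0.0835 and 0.0719) or KO DP replicates 1, 2 or 3 (0.0601, 0.115 and 0.0612). Zeb1 lost its own without KO T-ALL replicates 1 or 2 (0.101 and 0.0574) or KO DP replicates 1, 2 or 3 (0.108, 0.0767 and 0.0597). A block for the poly-A set equals leaving out KO T-ALL replicate 1 here, the only array of these groups with that signal. The Zeb1 call was also lost with quantile normalization (0.0517) and with limma's trend and robust settings (0.0767).

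Myb (log2 −0.20, interval −0.54 to 0.14), Runx1 (log2 0.35, interval −0.13 to 0.82), Sox4 (log2 −0.41, interval −0.76 to −0.06, adjusted p = 0.0814), Ets1 (log2 −0.68, interval −1.53 to 0.17) and Gfi1 (log2 −0.47, interval −0.99 to 0.05) did not pass. Sox4 passed without KO T-ALL replicate 2 (log2 −0.55, adjusted p = 0.022). The order of group means thus differed among factors. Satb1 ran from KO T-ALL (2037 ± 419, SD) through WT T-ALL (5152 ± 531) to KO DP (11349 ± 374) and WT DP (11576 ± 758), where the first step was called, the last was not, and the middle one joins groups of unlike genotype and cell type and was not tested. Gata3 ran from WT T-ALL (534 ± 16.2) through WT DP (659 ± 73.2) and KO DP (755 ± 121) to KO T-ALL (1267 ± 289), and only the last step was called. Bcl11b ran from WT T-ALL (2698 ± 85) and KO T-ALL (3110 ± 485) to WT DP (8117 ± 792) and KO DP (8373 ± 545), with no call inside either pair.

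Tox ran from WT T-ALL (185 ± 22.3) through WT DP (224 ± 37.1) and KO DP (241 ± 35.1) to KO T-ALL (386 ± 46.4), with its last step called. Myb ran from WT T-ALL (6503 ± 299) through KO T-ALL (9877 ± 1172) and KO DP (11368 ± 1512) to WT DP (12468 ± 268), with its first step called. Runx1 ran from WT T-ALL (799 ± 87.5) through KO DP (1057 ± 156) and WT DP (1243 ± 199) to KO T-ALL (1368 ± 334). Its first and last steps join groups that differ in both genotype and cell type and were not tested, and KO DP and WT DP were not called apart. Sox4 ran from WT T-ALL (3559 ± 486) through KO T-ALL (5981 ± 1052) and WT DP (6855 ± 1883) to KO DP (7900 ± 713). The first step was called, the second, which joins groups of unlike genotype, was not tested, and the last was not called.

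No tested neighbours of Ets1 or Gfi1 were called apart. Ets1 had means of 1377 ± 350 in WT T-ALL, 2374 ± 1001 in KO T-ALL, 3295 ± 1585 in WT DP and 3780 ± 1415 in KO DP. Gfi1 had 820 ± 40.5, 852 ± 233, 1296 ± 432 and 1163 ± 154 in the same groups, and Zeb1 1406 ± 145, 1331 ± 173, 2058 ± 267 and 1878 ± 220. For Zeb1 each leukaemia group lay below its thymocyte group, as called above, while in Ets1 the SD passed 1000 in 3 of the 4 groups.

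Probe sets of 1 gene did not always order the arrays alike. WT DP replicate 3, with the highest Gapdh ratio, was the lowest of its group in all 4 Ets1 and all 3 Tox probe sets, in the Gfi1 set and in 2 of 3 Myb sets. In Sox4 it was the lowest by the representative set (6639, 8836 and 5089) and the highest by 1419155_a_at (2381, 3611 and 5346) and 1419156_at (2074, 2876 and 3619). The part of RNA quality in these orders was not tested.

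The dimmest probe sets carried little information. Sox4 1443778_at and Zeb1 1420243_at were left out by the filter, and Sox4 1458332_x_at passed it but, like them, never exceeded the background ceiling of 35.3. The remaining Zeb1 sets, 1443005_at and 1446127_at, differed by log2 −0.18 and 0.04 between the leukaemia genotypes.

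For each factor the 2 genes with the most similar pattern were taken by Pearson correlation over the 12 arrays, which share the 4 group means. Satb1 was followed most closely by Camk1d (r = 0.994) and Aff1 (0.990). Camk1d had mean intensities of 207 in WT T-ALL, 26.5 in KO T-ALL, 880 in WT DP and 699 in KO DP. Bcl11b was followed by Abca1 and Hook1 (both 0.988), which were at 8.35 and 11.9 in WT T-ALL and at 558 and 409 in WT DP.

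Gata3 was matched by Arap3 (0.951) and St3gal1 (0.949), Tox by Cxxc5 (0.947) and Gstp3 (0.942), and Myb by Rasgrp2 (0.967) and Ablim1 (0.966). Cxxc5 had means of 375 in WT T-ALL, 1311 in KO T-ALL, 527 in WT DP and 571 in KO DP. Runx1 had the weakest matches, Lta (0.878) and Nfatc1 (0.873). The remaining pairs were Sox4 with Pnrc1 (0.963) and Bicra (0.961), Ets1 with Cdk19 (0.963) and Tpt1 (0.957), Zeb1 with Terf2 and Hsf2 (both 0.948), and Gfi1 with Tlk1 (0.972) and Sp3 (0.967). Zeb1's match Hsf2 lay below the background ceiling in the mean of every group. Arap3 did so in every group except KO T-ALL (119), Abca1 and Hook1 in both leukaemia groups, and Camk1d in KO T-ALL. Lta lay near the ceiling, at 30.6 in WT T-ALL, 44 in KO T-ALL, 46.2 in WT DP and 35.5 in KO DP.

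Relatives of the factors changed in other ways. Of 20 listed, 18 were tested, and 5 were higher and 2 lower in KO than in WT T-ALL (median log2 0.22), against 9.19% and 6.98% of all genes and their median of −0.06. Erg, an ETS factor of blood stem cells, had a mean of 28.2 ± 5.40 in WT T-ALL and 826 ± 213 in KO T-ALL (log2 4.23, SE 0.20, adjusted p = 3.14e-05). Sox13, a factor of gamma delta T cells, stood at 61.4 ± 19.9 and 755 ± 181 (log2 3.32, SE 0.23, adjusted p = 0.000173). Gata1 (37 ± 5.05 to 138 ± 12.6, log2 1.54, adjusted p = 0.000242) and Gfi1b (45.6 ± 4.01 to 122 ± 12, log2 1.16, adjusted p = 0.000659), both factors of erythroid and megakaryocyte cells, also rose. Gata2 rose as well (log2 1.34), and Mybl2 (log2 −0.79) and Sox12 (log2 −0.62) fell, 3 relatives named after their values were seen. For Erg the wild-type mean lay below the background ceiling, so the size of its difference depends on the added constant.

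In thymocytes 0 relatives passed in limma and 2 had an unadjusted p under 0.05, of which Tox3 came nearest (131 ± 8.71 to 54.7 ± 8.94, log2 −1.06, adjusted p = 0.0846). Between WT T-ALL and WT DP 5 of 18 relatives were higher and 3 lower (median log2 0.10), not far from the 19.7% and 14.2% of all genes (median 0.06). Ets2 was far lower in the leukaemia (485 ± 40.4 against 6295 ± 607, log2 −3.65), and Tox3 (log2 −2.63) was at 7.78 ± 2.60, within background. Tox2 (3348 ± 785 against 359 ± 104, log2 3.18) and Runx3, a CD8 and natural killer cell factor (487 ± 101 against 89 ± 15.9, log2 2.25), were higher. In KO T-ALL against KO DP 8 relatives were higher and 2 lower, where 18.5% and 11% of all genes were, and Sox13 (log2 3.63), Erg (log2 3.97), Runx3 (log2 2.64) and Ets2 (log2 −3.03) had the smallest p. The difference of genotype effects passed for 7, 6 higher and 1 lower, where 12.6% of all genes passed, among them Erg (log2 4.19), Sox13 (log2 3.35), Gata1 (log2 1.32) and Gfi1b (log2 0.99).

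**Figure D4:**
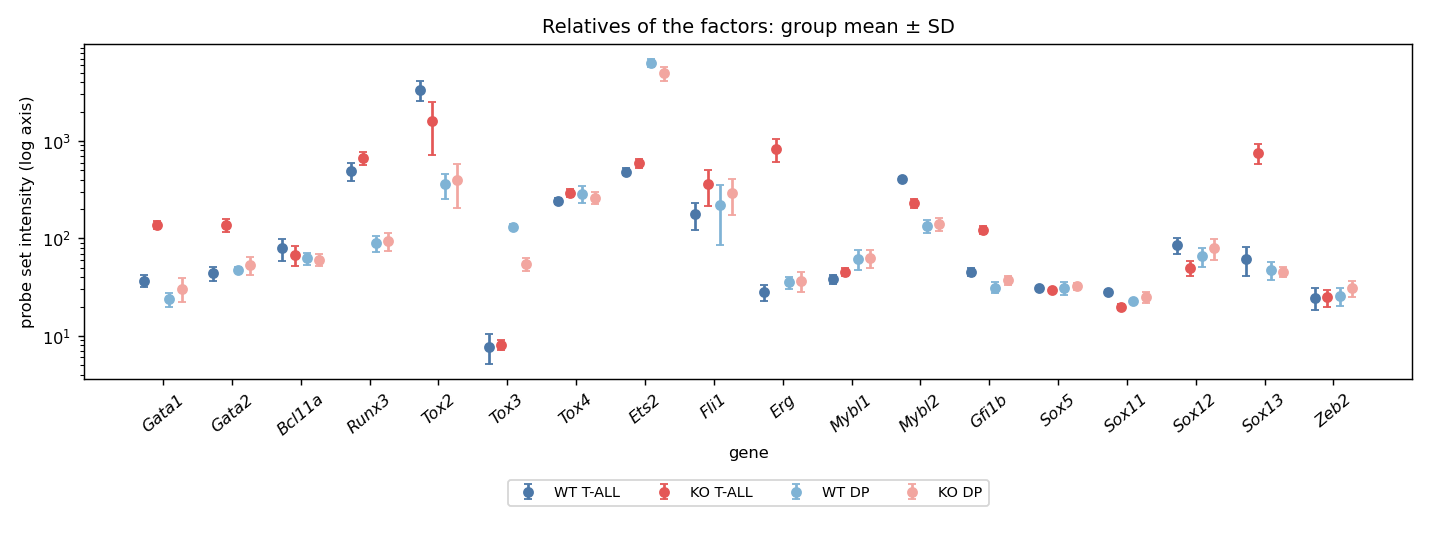
Group mean intensity ± SD (3 arrays per group, log axis) of the 18 tested relatives of the factors. Erg, Sox13, Gata1, Gata2 and Gfi1b stand out in KO T-ALL, and Ets2 and Tox3 in the thymocyte groups.

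Lists of other genes of the pathway give the setting, and their counts stand against the same shares of all genes, 9.19% higher and 6.98% lower between the leukaemia genotypes, 19.7% and 14.2% in WT T-ALL against WT DP and 18.5% and 11% in KO T-ALL against KO DP, with medians over all genes of −0.06, 0.06 and 0.01. Of 22 tested other T-lineage factors, 4 were higher and 2 lower in KO than in WT T-ALL (median log2 0.27). Bach2, a repressor that restrains effector programmes, went from 29.3 ± 3.05 to 532 ± 211 (log2 3.53, adjusted p = 0.000185), the first of these below the background ceiling, and the Helios gene Ikzf2 from 1094 ± 129 to 2327 ± 502 (log2 1.06, adjusted p = 0.00765). Id3, an inhibitor of E proteins, fell from 748 ± 162 to 156 ± 47.2 and the Aiolos gene Ikzf3 from 1551 ± 60.6 to 509 ± 166. In thymocytes 0 of the 22 passed in limma (0 also at an unadjusted p under 0.05), in WT T-ALL against WT DP 3 were higher and 6 lower (median log2 −0.12), and in KO T-ALL against KO DP 6 and 4 (median log2 0.09). Against thymocytes the Notch target Hes1 was higher in both genotypes (log2 3.13 in WT and 4.63 in KO).

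Of 16 progenitor factors that normally fall at commitment, 7 were higher and 1 lower in KO than in WT T-ALL, with a median of log2 0.01. Nfe2, Lyl1, Hhex and Lmo2 had the smallest p, from 3.1e-06 to 2.07e-05 after adjustment, and differences of log2 4.96, 5.14, 6.03 and 3.85. Hhex at 24 ± 6.80 and Nfe2 at 26.4 ± 5.39 were below the background ceiling in WT T-ALL. In thymocytes 0 passed in limma, and 0 had an unadjusted p under 0.05. In WT T-ALL against WT DP 5 were higher and 0 lower (median log2 0.07), and in KO T-ALL against KO DP 8 were higher and 0 lower (median log2 0.72). Mycn separated both leukaemias from thymocytes (9456 ± 754 in WT T-ALL, 5610 ± 768 in KO T-ALL, 68.9 ± 12.1 in WT DP).

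Of 23 tested T-cell genes that come on at or after commitment, 1 was higher and 8 lower in KO than in WT T-ALL (median log2 −0.20). Ptcra, which encodes the invariant chain of the pre-TCR (log2 −5.08), Cd8b1 (log2 −5.57), Cd4 (log2 −1.39) and Thy1 (6100 ± 173 to 1186 ± 294, log2 −2.37) led these. In thymocytes 0 passed in limma, and 2 had an unadjusted p under 0.05. In WT T-ALL against WT DP 2 were higher and 16 lower (median log2 −0.99), with the recombinase gene Rag1 at 39.4 ± 4.86 against 11101 ± 1928, and in KO T-ALL against KO DP 3 were higher and 15 lower (median log2 −1.13). Ptcra was higher in WT T-ALL than in WT DP (log2 2.01) and lower in KO T-ALL than in KO DP (log2 −3.34). The difference of these 2 passed for Ptcra (log2 −5.35, adjusted p = 2.98e-08). Its mean in KO T-ALL, 31.6, was below the background ceiling, so the sizes of its negative differences depend on the added constant.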

How the data were processed

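Total RNA (7 µg per sample, per the labels' protocols) was labelled as biotin cRNA and read on 12 Affymetrix mouse arrays. The deposited table holds probe set intensity values on a linear scale, summarized by the authors; the method of summarization, background correction and normalization is not given in the sources used here. No further normalization was applied. Intensities were taken as log2(value + 16). For each gene the brightest probe set that names no other gene stood for it. Genes had to pass the 25th percentile of an array on 3 or more arrays, and limma 3.58.1 (lmFit, eBayes; R 4.3.3) then tested each comparison of 2 groups on its 6 arrays. Probe sets were tested separately in the same way, 35465 in all. The 10 genes and all lists were chosen with earlier results of these data known. Genes named from a list are those past the threshold with the smallest p, up to 4 per comparison, or the 2 smallest where fewer pass. The fit was tested on simulated data. Plots used matplotlib 3.10.9.

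Replicates are separate samples by number; nothing says whether they came from separate animals, so p-values measure the spread between these samples. After group means were taken off, equal numbers correlated at r = 0.40, 0.24 and 0.55 between the leukaemia genotypes. Between WT T-ALL and WT DP they did so at 0.45, 0.44 and 0.58. In these comparisons a block is given where it changed a call, though the labels do not say that equal numbers pair samples. The values were −0.52, 0.14 and −0.49 between the thymocyte genotypes and −0.39, 0.09 and −0.43 between KO T-ALL and KO DP. Alternatives covered normalization, filter, constant, probe set choice, blocks, weights and leaving out each array.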

Additional observations from a re-analysis of the deposited data

Results flagged for a closer look

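For 5 factors the effect of the MBD2 deletion differed between leukaemia cells and thymocytes in a limma test of the difference itself (12 arrays, 3 per group). The difference was log2 −1.32 for Satb1, 1.01 for Gata3, 0.97 for Runx1, 0.90 for Tox and 0.74 for Myb. The call of Runx1 was lost with quantile normalization, with centring on the 75th percentile and without any one of 8 of the arrays. When each probe set was tested, 3 of 5 Satb1, 2 of 6 Runx1, 1 of 3 Tox and 1 of 3 Myb sets were called. Groups of 3 arrays are too small for a test of single outlying arrays, so none was made.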

How the results depend on the processing

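Over 1000 recomputed member differences 928 kept their side of the threshold, 50 lost the call, 22 gained one and 0 reversed with a call. Differences called in neither fit count among the 928 even where their sign changed. Gfi1 between the leukaemia genotypes, for example, ran from log2 −0.13 to 0.26. The counts of factors called stayed within 1.5 times of the reported ones except as follows. In KO T-ALL against KO DP the 2 higher factors became 1 with quantile normalization, no filter or an added constant of 64, and 0 with the replicate block. Leaving out 1 array at a time gave 3 to 4 higher factors between the leukaemia genotypes, 3 to 8 lower in WT T-ALL against WT DP (3 without WT T-ALL replicate 1), and 1 to 2 higher and 2 to 3 lower in KO T-ALL against KO DP. Over all genes, calls between the leukaemia genotypes went from 2493 to 3871 with the replicate block and ranged from 1412 to 2429 without 1 array (1412 without WT T-ALL replicate 2). In thymocytes the 5 calls became 11 when centred on the 75th percentile, 8 with a constant of 1, 11 with trend and robust, 17 with array weights, 0 with the replicate block, 1 with a block for the poly-A set, 10 with the Gapdh covariate, 13 with all 12 arrays, and 1 to 4 without 1 array. The calls of the difference of effects went from 1943 to 2920 with array weights. In the comparisons where equal numbers all correlated positively the replicate block changed no call of a factor beyond those of Ets1 and Gfi1. With it Tox, Gata3 and Zeb1 in KO T-ALL against KO DP had adjusted p of 0.0597, 0.093 and 0.116. Equal numbers did not all correlate positively there, and the causes of these shifts were not tested. Centring on the 75th percentile moved the median of all genes from −0.06 to −0.13 between the leukaemia genotypes and the share of calls that were higher from 56.8% to 45.0%, from 0.06 to 0.14 in WT T-ALL against WT DP (58.0% to 64.4%), and from −0.05 to −0.18 in the difference of effects (62.4% to 47.8%). Under it the called factors kept their directions, but Runx1 lost its call in the difference of effects (adjusted p = 0.0734; 0.0621 with quantile normalization) and Zeb1 in WT T-ALL against WT DP (0.0542). Without detection calls, levels under 35.3 cannot be told from background.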
